A study of Mus musculus with 6 samples.

Results

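Hox genes encode homeodomain transcription factors that lay out the head-to-tail axis of the embryo, and 28 of them were measured here among 17022 gene names. They were chosen by name alone: every entry of the isoform table called Hoxa, Hoxb, Hoxc or Hoxd plus a number was taken, isoform suffixes removed, which gave 73 of 60744 isoforms. In mammals these genes lie in 4 clusters, A to D, and the number after the letter marks the paralog group, the genes at matching places of the clusters. Low numbers are switched on early and up to the hindbrain, high numbers later and only towards the tail, so that the set of active Hox genes marks a position along the trunk. In the spinal cord and its ganglia this code helps to set the identity of motor and sensory neurons. Central groups are typical of the thoracic cord, and groups 9 to 11 of lumbar and sacral levels.

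The RNA is that of neurons which a laser had cut from sections of dorsal root ganglia, the seat of sensory cell bodies, at lumbar levels 3, 4 and 5. All mice were male C57Bl/6, labelled adult and 4 to 6 weeks old, and carried no engineered allele named in the labels. In the crush group the sciatic nerve had been crushed for 10 seconds, and in the sham group it had only been exposed for 10 seconds. Tissue was taken 7 days later, and each group has 3 libraries of polyadenylated RNA, called sham 1 to 3 and crush 1 to 3. The labels give the 3 lumbar levels together, so the share of each ganglion in a library is not known, and no other axial level was sampled. The sources used here do not tie each library to an animal of its own, so the p-values rest on a spread among libraries that may be technical.

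Values are FPKM, a measure in which the authors divided fragments by transcript length and by all mapped fragments, summed here over the isoforms of a gene. FPKM keeps no read count, so the depth of each library is unknown. Total FPKM was 316263 to 364606 per library, and all Hox genes together held 136 to 163 FPKM. Sham 2 stood apart: over the 12289 genes with a mean of at least 1 FPKM, its log2 levels differed from the mean of the other 5 libraries by a median of 0.214, against 0.0909 to 0.111 for the others. The differences that it moved most are given with and without it. Markers of sensory neurons summed to 5798 to 7821 FPKM per library, with Tubb3, a neuronal tubulin, and Uchl1, a neuronal ubiquitin hydrolase, the most abundant. Markers of satellite and Schwann glia summed to 2699 to 3705 FPKM and fibroblast markers to 124 to 198 FPKM, so RNA of other ganglion cells was present. Sums were 16.2 to 20.2 FPKM for endothelium, 37.2 to 43.6 for mural cells and 1.06 to 2.02 for the 2 spinal cord markers with values.

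Hox transcripts of every cluster were present, and their levels summed by paralog group were highest in groups 9 and 10. Of the 28 genes, 24 (85.7%) reached 1 FPKM on average over all 6 libraries, against 72.2% of all genes. At higher levels the comparison turned: 14 Hox genes (50.0%) reached 3 FPKM, against 56.8% of all genes, and 4 (14.3%) reached 10 FPKM, against 33.1%. Groups 9 and 10 (7 genes) held 50.2% of all Hox FPKM, groups 6 to 8 (7 genes) held 28.2% and groups 1 to 5 (12 genes) held 20.9%. Gene by gene the order was mixed. Hoxa9 and Hoxa10 had the highest means, but Hoxa7 (14.7 FPKM) and Hoxb5 (11.5 FPKM) lay above the other genes of groups 9 and 10. The last measured group, group 11, held 0.614%. By cluster, A held 42.7%, B 24.7%, D 21.2% and C 11.4%. These shares describe the RNA of each library, in which that of other ganglion cells was present beside that of neurons.

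**Figure D1:**
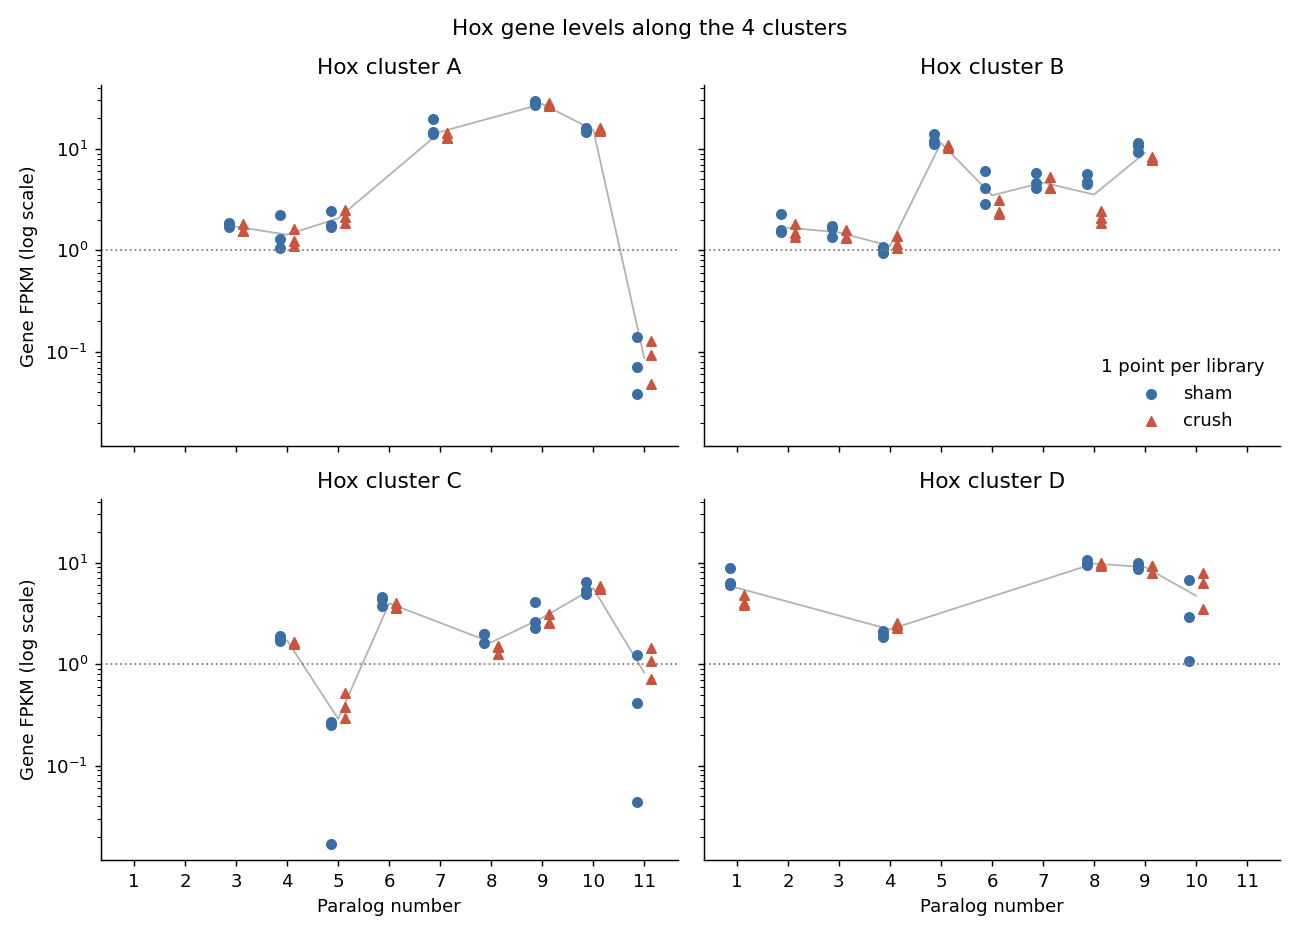
FPKM of the 27 Hox genes reported here (vertical axis, log scale) by paralog number (horizontal axis) in the 4 clusters, with 1 point for each of the 3 sham libraries (circles) and 3 crush libraries (triangles), a grey line through the means over 6 libraries and a dotted line at 1 FPKM. Hoxa9 has the highest mean at 27.7 FPKM, and the level in cluster A drops from 15.4 FPKM at Hoxa10 to 0.0862 FPKM at Hoxa11.

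Group 9 alone, with 4 genes, summed to 50.8, 51.0 and 50.9 FPKM in sham 1 to 3 and to 46.3, 46.0 and 47.8 FPKM in crush 1 to 3. Hoxa9 had 29.4, 27.03 and 28.3 FPKM in the sham and 28.2, 26.4 and 27.1 FPKM in the crush libraries, so its highest value was 1.11 times its lowest. Hoxa9 was the only Hox gene whose range did not overlap that of the next gene in the order of mean levels; the other 26 pairs of neighbours in that order overlapped. Hoxb9, on chromosome 11, had 9.21, 10.6 and 11.3 FPKM in sham and 7.69, 7.70 and 8.36 FPKM in crush libraries. Hoxd9 had 9.93, 9.22 and 8.64 FPKM in sham and 7.88, 9.31 and 9.24 FPKM in crush libraries, a range that overlaps that of Hoxb9. The lowest member of the group was Hoxc9, with 2.27, 4.11 and 2.58 FPKM in sham and 2.53, 2.55 and 3.12 FPKM in crush libraries. All 4 genes of group 9 were thus present here.

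Group 10 genes are needed for lumbar identity of vertebrae and motor neurons in the mouse. Hoxa10 had 14.8, 14.9 and 16.03 FPKM in the sham and 15.1, 15.96 and 15.4 FPKM in the crush libraries, the smallest ratio of highest to lowest value (1.08) of the 28 genes. Hoxc10 had 6.45, 4.89 and 5.40 FPKM in sham and 5.45, 5.87 and 5.44 FPKM in crush libraries. Hoxd10 varied far more, with 6.70, 1.08 and 2.90 FPKM in sham and 3.53, 7.86 and 6.26 FPKM in crush libraries, and is taken up below with group 11. In each of the clusters A and C the mean level fell below 1 FPKM after group 10. Hoxa11 had a mean of 0.0862 FPKM, at 0.0380 to 0.141 FPKM per library. Hoxc11 had a mean of 0.823 FPKM but reached 1.24 FPKM in sham 1, 1.45 FPKM in crush 2 and 1.08 FPKM in crush 3. Hoxd11 and Hoxd3 have transcripts in the authors' exon file but no FPKM value in the table and were not analysed here, as were the higher groups.

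In groups 6 to 8 the clusters differed. Hoxa7 had 13.9, 19.8 and 14.6 FPKM in sham and 12.9, 12.7 and 14.4 FPKM in crush libraries, and Hoxb7, its paralog in cluster B, had 4.56, 5.74 and 4.13 FPKM in sham and 4.15, 4.10 and 5.27 FPKM in crush libraries. Hoxd8 was steady at 9.82, 10.6 and 9.46 FPKM in sham and 9.31, 9.89 and 9.71 FPKM in crush libraries. Its paralog Hoxc8, a gene known for the brachial and thoracic cord, had 2.002, 1.61 and 1.97 FPKM in sham and 1.48, 1.26 and 1.52 FPKM in crush libraries. Hoxc6 had 3.75, 4.57 and 4.35 FPKM in sham and 3.96, 3.63 and 3.61 FPKM in crush libraries. Hoxb6 had 2.88, 6.06 and 4.14 FPKM in sham and 2.29, 3.15 and 2.38 FPKM in crush libraries, but 99.5% of its exon bases are also exons of Hoxb5 isoforms, so the split of reads between them is uncertain.

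Groups 1 to 5, the anterior end of the code, were low with the exceptions of Hoxb5 and Hoxd1. Hoxb5 had 11.3, 13.9 and 11.9 FPKM in sham and 10.9, 10.6 and 10.1 FPKM in crush libraries. Its paralog Hoxa5 had 2.45, 1.70 and 1.79 FPKM in sham and 2.14, 2.49 and 1.85 FPKM in crush libraries. Hoxc5, of the same group, stayed at 0.0169 to 0.524 FPKM per library and was not tested, although its 3 crush values lay above its 3 sham values. Among group 4 genes the values lay close together: Hoxa4 had 1.296, 2.23 and 1.05 FPKM in sham and 1.25, 1.12 and 1.62 FPKM in crush libraries. Hoxb4 had 1.03, 1.08 and 0.932 FPKM in sham and 1.37, 1.15 and 1.07 FPKM in crush libraries. Hoxc4 had 1.80, 1.71 and 1.89 FPKM in sham and 1.63, 1.66 and 1.57 FPKM in crush libraries. Group 4 was the only one with all 4 clusters present beside group 9, and Hoxd4 had its highest mean, 2.20 FPKM. The only isoform of Hoxd4 with values, Hoxd4_j1, was assembled by the authors and is 11460 bases long, so this level may not be that of Hoxd4 alone.

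The remaining anterior genes were of group 3 and below. Hoxa3 had 1.85, 1.68 and 1.82 FPKM in sham and 1.57, 1.81 and 1.54 FPKM in crush libraries. Hoxb3 had 1.72, 1.35 and 1.67 FPKM in sham and 1.36, 1.31 and 1.595 FPKM in crush libraries. Hoxb2, a hindbrain gene, had 1.602, 2.28 and 1.51 FPKM in sham and 1.48, 1.36 and 1.82 FPKM in crush libraries. In this group of genes the sham and crush ranges overlapped for each. Hoxa5 shares 88.5% and Hoxa7 80.5% of its exon bases with Hoxa3 isoforms assembled by the authors, so these 3 values are uncertain too. In all, 15 of the 28 genes share exon bases with another Hox gene.

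After crush, 1 Hox gene passed the test and fell, and none rose. Of the 24 genes tested, Hoxb8 alone had an adjusted p under 0.05 (limma), against 3.78% of all 12289 genes tested, and against 1.39% that fell. At an unadjusted p under 0.05 there were 6 Hox genes, 5 lower and 1 higher, against 17.6% of all genes. The 3 crush and 3 sham values did not overlap for 7 of the 24, against 26.3% of all genes, and 6 of these were lower after crush, against 14.1%. The median difference between crush and sham was -0.08 on the log2(FPKM + 1) scale over the 24 genes and -0.02 over all genes tested. Of the 24 differences 18 were negative (75.0%), against 54.1% of all genes. The summed FPKM of all Hox genes was 154, 163 and 150 in sham and 136, 142 and 144 in crush libraries, so the groups did not overlap. Cluster B held most of that gap, with 37.0, 46.7 and 40.2 FPKM in sham against 31.7, 31.2 and 32.7 FPKM in crush libraries. The sums of clusters A (63.9 to 67.5 FPKM in sham and 60.9 to 62.1 FPKM in crush libraries) and C (16.9 to 17.8 and 16.3 to 16.7 FPKM) did not overlap either but lay closer together, and that of cluster D overlapped. None of these sums is scaled to the total FPKM of its library, which was highest in sham 2 (364606) and lowest in crush 2 (316263). They therefore do not show that the groups differ in the Hox share of that total. As shares of the total, the sums of all Hox genes overlapped between the groups. The 163 of 364606 FPKM in sham 2 is a smaller share than the 142 of 316263 FPKM in crush 2. In bulk libraries, fewer cells of a type and less RNA per cell cannot be told apart.

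**Figure D2:**
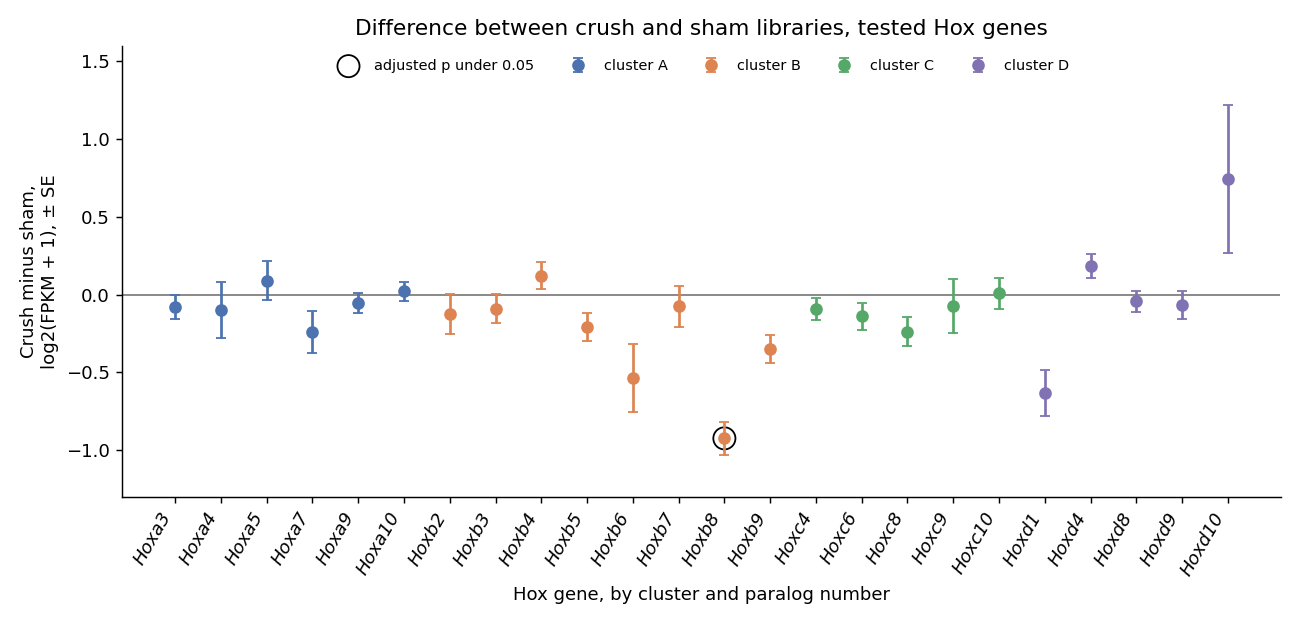
Crush minus sham on the log2(FPKM + 1) scale (vertical axis; points are limma estimates and bars their standard errors) for the 24 tested Hox genes, ordered by cluster and paralog number; the ring marks an adjusted p under 0.05. Hoxb8 lies lowest at -0.92 and is the gene ringed, and Hoxd10 lies highest at 0.74 with the widest bar.

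Hoxb8, a gene whose loss in mice disturbs grooming and the response to noxious stimuli, was lower after crush. It had 4.75, 5.63 and 4.49 FPKM in sham 1 to 3 and 2.44, 1.87 and 2.10 FPKM in crush 1 to 3. The crush values were all below the sham values, at 0.431 times the sham mean (4.96 ± 0.599 FPKM in sham and 2.14 ± 0.289 FPKM in crush, SD, n = 3 each). The limma difference was -0.92 ± 0.107 (SE) with an adjusted p of 0.0100, and -0.85 with an adjusted p of 0.00449 without sham 2. The call was lost without crush 2 (-0.86, adjusted p = 0.0515), without crush 3 (-0.92, adjusted p = 0.0533) and when isoforms with a reference identifier alone were summed (-0.39, adjusted p = 0.377). The gene lies at chr11:96141078-96146585 on the plus strand in build mm9, and 68.4% of its exon bases are shared with isoforms named Hoxb9.

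By the isoform values, most of the Hoxb8 difference lay in an isoform with an upstream start, but the isoform tests did not pass. The adjusted p was 0.171 for that isoform (limma) and 0.604 for unequal change of the Hoxb8 isoforms (diffSplice in limma). The assembled isoform Hoxb8_j1 begins with a short exon at chr11:96141078-96141128 and joins the exons of the reference isoform. It had 3.18, 3.65 and 2.56 FPKM in sham and 1.05, 0.503 and 1.31 FPKM in crush libraries. The reference isoform had 1.57, 1.98 and 1.93 FPKM in sham and 1.39, 1.36 and 0.787 FPKM in crush libraries. The crush values of both isoforms lay below all their sham values. Another transcript, Hoxb9_j4, starts at Hoxb9 and ends in the last exon of Hoxb8, at 0.930, 2.41 and 1.44 FPKM in sham and 0.652, 0.509 and 0.820 FPKM in crush libraries. Together the 3 isoforms that hold this last exon had 5.68, 8.05 and 5.93 FPKM in sham and 3.09, 2.37 and 2.92 FPKM in crush libraries, again without overlap.

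The RefSeq promoters (build GRCm38.p6) of the genes with the lowest and highest differences are shown, since the results turn on these genes. Each is the 250 bases before the RefSeq start of the gene, on the plus strand, and not before the upstream starts of the assembled isoforms Hoxb8_j1, Hoxd10_j1 and Hoxd10_j2. Capitals mark matches on either strand to the TATA box (TATAAA), the CCAAT box (CCAAT), the GC box (GGGCGG), the AP-1 site (TGACTCA), the homeodomain palindrome (TAATTA) or the nuclear receptor half-site (AGGTCA). The Hoxb8 window is chr11:96281655-96281904, the Hoxd1 window chr2:74762730-74762979 and the Hoxd10 window chr2:74691641-74691890.
Hoxb8: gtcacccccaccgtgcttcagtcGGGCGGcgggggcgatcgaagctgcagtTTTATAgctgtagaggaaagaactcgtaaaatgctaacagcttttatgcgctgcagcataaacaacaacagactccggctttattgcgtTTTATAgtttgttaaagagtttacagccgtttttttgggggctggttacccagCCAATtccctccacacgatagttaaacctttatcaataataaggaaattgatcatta
Hoxd1: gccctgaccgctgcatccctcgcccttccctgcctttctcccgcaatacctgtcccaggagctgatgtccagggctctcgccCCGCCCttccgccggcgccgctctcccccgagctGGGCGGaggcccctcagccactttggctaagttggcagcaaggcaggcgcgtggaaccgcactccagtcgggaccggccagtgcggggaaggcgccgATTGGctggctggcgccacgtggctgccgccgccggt
Hoxd10: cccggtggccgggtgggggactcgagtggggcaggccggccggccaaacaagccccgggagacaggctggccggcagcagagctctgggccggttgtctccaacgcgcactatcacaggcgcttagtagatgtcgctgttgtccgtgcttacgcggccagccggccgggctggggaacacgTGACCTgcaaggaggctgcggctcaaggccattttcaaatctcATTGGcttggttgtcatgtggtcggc
Hoxb8 holds a GC box, 2 TATA boxes and a CCAAT box, Hoxd1 holds 2 GC boxes and a CCAAT box, and Hoxd10 a nuclear receptor half-site and a CCAAT box. Among the 32851 mouse promoters of this length, 12.4% hold the TATA box, 33.8% the CCAAT box, 32.7% the GC box, 4.46% the AP-1 site, 4.84% the palindrome and 14.0% the half-site. GC content is 44.4% in the Hoxb8 window, 71.6% in that of Hoxd1 and 65.6% in that of Hoxd10, against a median of 52.4%. A match of this kind is only a run of letters, and promoters were found for 14 of the 28 genes.

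Micro-RNAs coded between the Hox genes are known to act on Hox messengers, and Hoxb8 is the textbook target of miR-196. The mature sequences of the miR-196 and miR-10 families in the clusters are given from RefSeq. Their seed, bases 2 to 8, is in capitals, since they share 2 seeds. Other micro-RNAs of the clusters were not looked for.
mmu-miR-196a-5p: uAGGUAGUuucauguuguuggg
mmu-miR-196b-5p: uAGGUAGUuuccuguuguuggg
mmu-miR-10a-5p: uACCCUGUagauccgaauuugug
mmu-miR-10b-5p: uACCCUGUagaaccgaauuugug
The site for miR-196a in the Hoxb8 transcript is 22 bases long, with 21 Watson-Crick pairs, 1 G:U pair and 0 mismatches, and its bases opposite the seed are in capitals.
Hoxb8 site: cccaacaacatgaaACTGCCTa
Perfect matches to the miR-196 seed stand in the 3′ UTR of 8 of the 28 Hox genes (Hoxa7, Hoxb7 and Hoxc8 among them), against 6.11% of 20896 genes with a UTR. The Hoxb8 site is not among them, because its G:U pair falls opposite the seed. Matches to the miR-10 seed stand in 4 (Hoxb3 and Hoxd1 among them), against 12.5%. The levels of these micro-RNAs were not analysed here.

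Hoxd1, which in the mouse is used by pain-sensing neurons to shape their connections, had the next largest difference below 0. It had 6.35, 8.90 and 6.07 FPKM in sham and 3.80, 3.97 and 4.81 FPKM in crush libraries, so each crush value lay below each sham value. The means were 7.11 ± 1.56 FPKM in sham and 4.19 ± 0.540 FPKM in crush (SD, n = 3 each), a ratio of 0.590. The difference of -0.63 ± 0.147 (SE) had an adjusted p of 0.0729 (limma) and did not pass. Without sham 2, the library with the highest value, it was -0.48 and passed with an adjusted p of 0.0257, in a test that called 9.55% of all genes, 4.61% as lower. Hoxd1 has 1 isoform, at chr2:74600697-74603185 in mm9, which shares no exon bases with another gene.

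**Figure D3:**
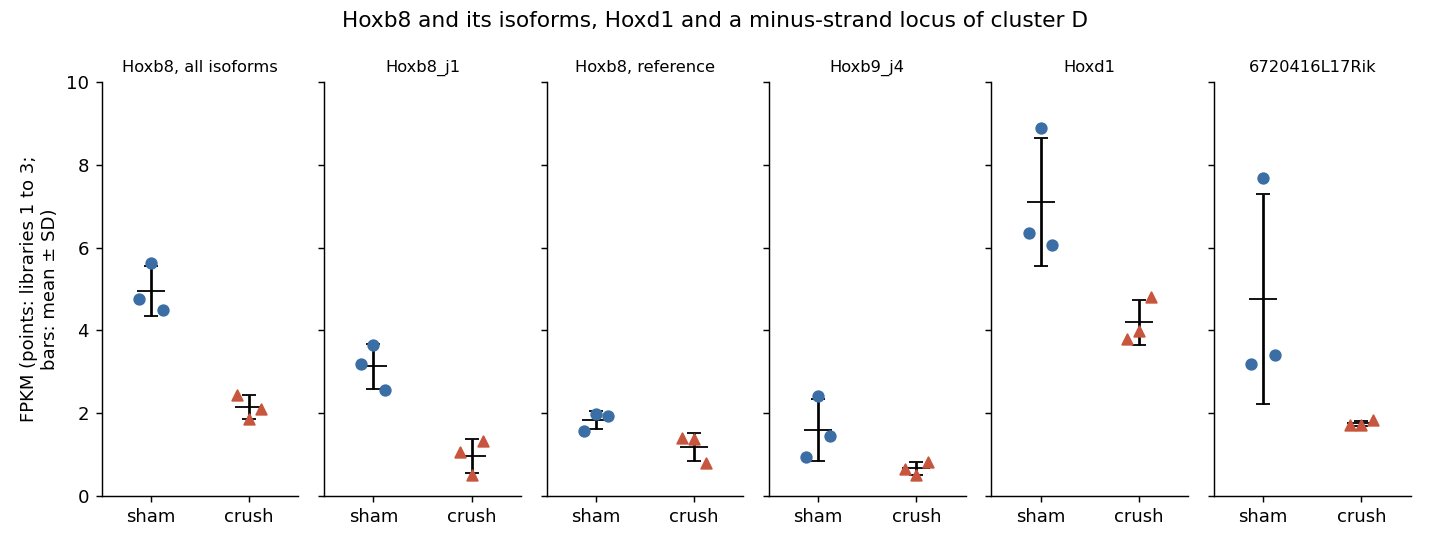
FPKM (vertical axis) in the 3 sham (circles) and 3 crush libraries (triangles), with mean and SD, for Hoxb8, its 2 isoforms, the isoform Hoxb9_j4 that ends in Hoxb8, Hoxd1 and the minus-strand locus 6720416L17Rik. In each panel the crush points lie below the sham points, and sham 2 is the highest point of Hoxd1 (8.90) and of 6720416L17Rik (7.68).

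A non-coding locus beside Hoxd1 had the same direction. 6720416L17Rik, which RefSeq lists as Haglr, lies on the minus strand at chr2:74587959-74589758 in mm9 and had 3.19, 7.68 and 3.40 FPKM in sham and 1.71, 1.71 and 1.82 FPKM in crush libraries. The difference was -0.98 ± 0.268 (SE) with an adjusted p of 0.111, and -0.64 with an adjusted p of 0.00474 without sham 2. It shares 915 exon bases with the isoform Hoxd4_j1 on the opposite strand, and since the libraries are not stated to keep strand, reads of the 2 cannot be told apart there. Hoxd4 itself had 2.11, 1.86 and 2.01 FPKM in sham and 2.41, 2.53 and 2.26 FPKM in crush libraries. All 3 crush values of Hoxd4 lay above its sham values, but its difference of 0.18 did not pass (adjusted p = 0.273).

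The other genes that stood apart between the groups did not pass either. With libraries weighted by their quality (array weights), 4 Hox genes passed and all were lower, Hoxb8, Hoxd1, Hoxb9 (-0.32, adjusted p = 0.0362) and Hoxc8 (-0.30, adjusted p = 0.0429), against 11.6% of all genes called and 5.66% called as lower. Hoxb9 differed by -0.35 ± 0.0888 (SE) with an adjusted p of 0.0917, and its crush values, 7.69 to 8.36 FPKM, lay below its sham values, 9.21 to 11.3 FPKM. Hoxb6 differed by -0.54 with an adjusted p of 0.266, and its groups overlapped, since sham 1 at 2.88 FPKM lay below crush 2 at 3.15 FPKM. Without sham 2, where Hoxb6 was highest, its difference was -0.32 (adjusted p = 0.242). That of Hoxa7 was -0.24 (adjusted p = 0.423) and -0.092 without sham 2, and that of Hoxb5, given next, was -0.13 without it. Hoxc8 differed by -0.24 (adjusted p = 0.243) and Hoxb5 by -0.21 (adjusted p = 0.288), both without overlap between the groups, as was Hoxc4 (-0.10, adjusted p = 0.561). The differences of Hoxa9 (-0.05), Hoxa10 (0.02), Hoxc10 (0.01), Hoxd8 (-0.04) and Hoxd9 (-0.07) had standard errors of 0.0637 to 0.0998, and their adjusted p ranged from 0.7499 to 0.980. Of the other tested genes, Hoxb4 (0.12) and Hoxa5 (0.09) had positive differences, and those of Hoxa3, Hoxa4, Hoxa7, Hoxb2, Hoxb3, Hoxb7, Hoxc4, Hoxc6 and Hoxc9 lay between -0.24 and -0.07. Without sham 2, those of Hoxa4 (0.095), Hoxb7 (0.038) and Hoxc9 (0.12) turned positive, and that of Hoxb2 was -0.0055.

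For Hoxd10 and Hoxc11, at the tail end of the code, levels differed between libraries more than between groups. Hoxa10 and Hoxc10, of group 10 too, were steadier, with highest values 1.08 and 1.32 times the lowest. Hoxd10, a gene of hindlimb and lumbar motor identity, was lowest in sham 2 (1.08 FPKM) and highest in crush 2 (7.86 FPKM), 7.28 times as high. Its difference between the groups was 0.74 ± 0.476 (SE), with an adjusted p of 0.490, and 0.27 without sham 2 (adjusted p = 0.673). Hoxc11 had 1.24, 0.0435 and 0.415 FPKM in sham and 0.708, 1.45 and 1.08 FPKM in crush libraries and was below the level tested. Both genes gave the 6 libraries the same order from high to low: crush 2, sham 1, crush 3, crush 1, sham 3, sham 2. Sham 1 thus stood with the crush libraries and above 2 of them.

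Of 16321 genes with a mean of at least 0.1 FPKM, 31 (0.190%) had that order, where 720 orders are possible and each would hold 0.139% if all were equally common. Hoxc11 was the only Hox gene among them beside Hoxd10, from which the order was taken, of 27 Hox genes above that level. Ranked by their log2 range over the libraries, Hoxc11 (3.43) and Hoxd10 (2.76) were the widest of the 31, with 0.1 FPKM added to each value. The order was taken from Hoxd10 after its values had been seen, so this is a description. The clone locus AK035706 has it too: it lies on the minus strand at chr15:102774246-102778243 in mm9, 2740 bases before the assembled isoform Hoxc11_j1. The reference isoform of Hoxc11 starts further on, at chr15:102784747. Values of AK035706 were low, at 0.201, 0.0336 and 0.129 FPKM in sham and 0.177, 0.218 and 0.199 FPKM in crush libraries. An unnamed locus at chr2:74518305-74519854, inside the first intron of Hoxd10_j1 and sharing 42 bases with the first exon of Hoxd10_j2, had that order but for sham 1 and crush 2, which traded places, with 0.365, 0 and 0.144 FPKM in sham and 0.180, 0.250 and 0.196 FPKM in crush libraries.

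**Figure D4:**
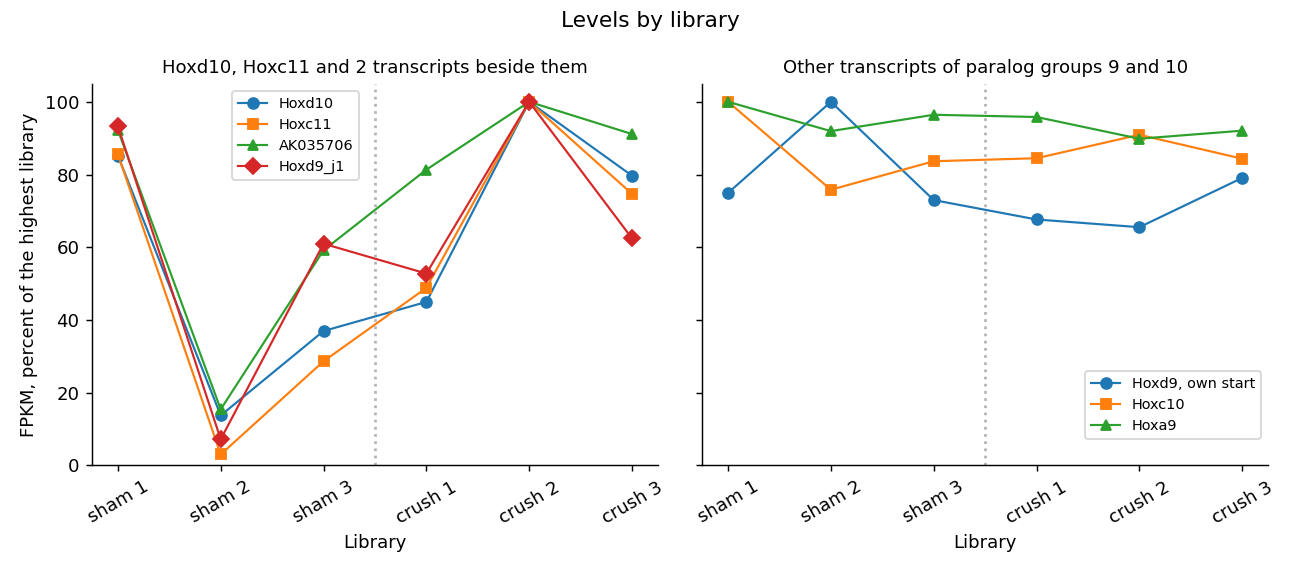
FPKM as a percentage of the highest library of each transcript (vertical axis) in the 6 libraries (horizontal axis), with lines joining the values of 1 transcript; the dotted line parts sham from crush. Left, Hoxd10, Hoxc11, AK035706 and Hoxd9_j1 drop to 3.00% to 15.4% in sham 2 and peak in crush 2; right, Hoxd9 from its own start, Hoxc10 and Hoxa9 stay at 65.5% or more in every library. The transcripts were chosen with their values known, and Hoxc11 and AK035706 have the library order of Hoxd10, so their likeness is a description. Other transcripts, such as Hoxd10_j2 and Hoxc9, are not drawn.

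Within the Hoxd genes, isoforms differed in whether they followed this order. Isoforms of 1 gene share exons here, so the split of reads between them is uncertain, and the part of their start was not tested. Hoxd10_j1 (chr2:74517459-74533161) and Hoxd9_j1 (chr2:74517599-74538255) begin up to 12.3 kb before the reference start of Hoxd10 and share the exon chr2:74521960-74522414. Hoxd10_j1 had 4.53, 0.280 and 1.62 FPKM in sham and 2.36, 4.88 and 3.89 FPKM in crush libraries. Hoxd9_j1 had 3.20, 0.246 and 2.09 FPKM in sham and 1.81, 3.43 and 2.14 FPKM in crush libraries, the same order but for sham 3 and crush 1. The isoform of Hoxd9 with its own start did not follow: it had 6.73, 8.97 and 6.55 FPKM in sham and 6.07, 5.88 and 7.10 FPKM in crush libraries, highest where Hoxd9_j1 was lowest. The isoform of Hoxd10 with its own start did follow, with 2.17, 0.209 and 0.734 FPKM in sham and 1.18, 2.66 and 1.69 FPKM in crush libraries. Hoxd10_j2, which also starts upstream, at chr2:74519778-74519819, did not follow: it was near 0 in sham 1 (0.00112 FPKM) and had 0.589 FPKM in sham 2. Summed, the 3 isoforms with upstream starts had 7.73, 1.12 and 4.26 FPKM in sham and 4.17, 8.63 and 6.71 FPKM in crush libraries. The sum of the 2 with their own start was 8.89, 9.18 and 7.28 FPKM in sham and 7.25, 8.54 and 8.79 FPKM in crush libraries.

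In sham 2 some Hox genes were low and others high. Against the mean of the other 5 libraries on the log2(FPKM + 1) scale, Hoxd10 was lower there by 1.56, and 0.114% of the 12289 genes tested were lower still. Hoxb6 (0.85), Hoxb8 (0.75) and Hoxd1 (0.74) were higher in sham 2, with 0.773%, 1.45% and 1.48% of genes higher still. Hoxa4 (0.52), Hoxc9 (0.51) and Hoxa7 (0.50) were also high there. Hoxa9 (-0.04), Hoxa10 (-0.04), Hoxd9 (0.04) and Hoxc4 (-0.00) lay near the other libraries. The marker sums given above were highest in sham 2 for sensory neurons and for glia, and their part in these values was not tested.

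Isoform values were far less steady than the sums. Of 38 Hox isoforms tested, limma called 0, against 0.0613% of 24485 isoforms, and 4 had an unadjusted p under 0.05, against 9.12%. These were Hoxb8_j1 (-1.09, limma adjusted p = 0.171), Hoxd1, Hoxb9_j1 (1.45, 1.84 and 1.46 FPKM in sham and 0.869, 0.973 and 1.06 FPKM in crush libraries) and Hoxb9_j4. With diffSplice in limma, 10 Hox genes were examined for isoforms that changed unequally, and 0 passed, against 0.519% of 6746 genes. At an unadjusted p under 0.05 there was 1, Hoxb8 (adjusted p = 0.604), against 6.23%. Of 73 isoforms 49 were assembled by the authors and 24 carry a reference identifier, and 30 reach exons of another Hox gene.

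The genes differed in how their FPKM was split. Hoxa9_j2 held 41.7% of Hoxa9 at 10.8 to 12.5 FPKM per library, whereas Hoxa9_j1 ran from 0 FPKM in sham 2 to 8.32 FPKM in sham 1 while the gene's sum moved by 1.11 times. Hoxa9_j6, which reaches into Hoxa10, had 2.56 to 9.70 FPKM. In Hoxa7 the leading isoform Hoxa7_j4 had 10.2 FPKM in sham 2 and 1.36 FPKM in sham 1, and Hoxa7_j5 had 0.00472 and 5.20 FPKM there. In each of these cases the isoforms of 1 gene differed between libraries of the same group. Hoxb5_j1, which reaches an exon of Hoxb3, had 2.34 to 6.69 FPKM beside the leading isoform Hoxb5_j3 at 4.56 to 6.75 FPKM. The reference isoform led in Hoxa4 (97.3% of the gene's FPKM), Hoxa10 (40.3%), Hoxb7 (92.6%), Hoxb9 (59.6%), Hoxc6 (65.9%), Hoxc10 (95.6%), Hoxd8 (56.4%) and Hoxd9 (76.2%). It was the sole isoform of Hoxb2, Hoxb4, Hoxb6, Hoxc8 and Hoxd1. An assembled isoform led in Hoxa3 (Hoxa3_j4, 44.2%), Hoxa5 (Hoxa5_j1, 50.8%), Hoxb3 (Hoxb3_j1, 60.5%), Hoxb8 (Hoxb8_j1, 57.6%), Hoxc4 (Hoxc4_j1, 49.9%), Hoxc9 (Hoxc9_j3, 28.9%) and Hoxd10 (Hoxd10_j1, 62.0%), and Hoxd4_j1 was the sole isoform of Hoxd4.

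In the authors' deposited table, which compares pooled group estimates, 32 Hox isoforms were tested and 3 were significant (9.38%), against 15.1% of 25544 isoforms. Hoxb8_j1 has a log2 change of -1.27 and a q of 5.63e-05 in the authors' deposited table. Hoxd1 has -0.55 and a q of 0.0152 in the authors' deposited table. Hoxd10_j2 has 0.85 and a q of 0.00981 in the authors' deposited table, with group values of 1.83 and 3.31 FPKM. Its per-library values were 0.00112, 0.589 and 0.549 FPKM in sham and 0, 0.322 and 0.676 FPKM in crush libraries, all below both group values. For Hoxd10_j1 the authors' deposited table gives 1.58 FPKM in sham and 0.921 FPKM in crush, the opposite order to the library means of 2.14 and 3.71 FPKM.

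Other loci inside and beside the clusters were mostly low. Of 8 loci other than Hox genes that lie inside the clusters, 6720416L17Rik alone reached the level tested. 5730446D14Rik, which overlaps 16.9% of the exon bases of Hoxa3 on the opposite strand, had 0.917, 1.23 and 0.957 FPKM in sham and 0.687, 0.922 and 0.760 FPKM in crush libraries. Of 8 neighbouring loci outside 4 were tested, and limma called 0. Among them, Skap2 (0.16, adjusted p = 0.266), an adaptor protein, Hibadh (-0.13, adjusted p = 0.304), an enzyme of valine breakdown, and Mtx2 (-0.16, adjusted p = 0.465), a mitochondrial import protein, did not pass. Mtx2, at the far side of Hoxd1, had 45.8 to 50.5 FPKM in sham and 37.6 to 46.6 FPKM in crush libraries.

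Hox proteins bind DNA together with TALE homeodomain partners of the Pbx, Meis and Pknox families. All 9 partners with values were tested, and limma called 0 of them, with 1 at an unadjusted p under 0.05, against 3.78% and 17.6% of all genes. The list also held Tgif1 and Tgif2, TALE proteins of another family, and its 10 tested genes had a median difference of -0.11 against -0.02 over all genes. Tgif1, a transcriptional repressor, rose from 2.99, 3.62 and 2.69 FPKM in sham to 5.33, 5.52 and 5.52 FPKM in crush libraries (log2 difference 0.66, adjusted p = 0.0189, limma). It passed in 8 of 15 alternatives, and its adjusted p was 0.0731 to 0.0978 without any 1 of sham 1, sham 3, crush 1, crush 2 or crush 3. Pknox2, the most abundant partner, had 20.5, 19.0 and 20.1 FPKM in sham and 15.957, 16.9 and 15.960 FPKM in crush libraries, which do not overlap, and did not pass (-0.27, adjusted p = 0.0717). Meis3 followed at 13.9 to 16.4 FPKM.

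Retinoic acid sets the anterior limits of Hox genes in the embryo, and 12 of 18 genes of its pathway were tested. Here 1 rose, 0 fell and 11 did not pass (median -0.02), against 2.38% of all genes that rose. Cyp26a1, an enzyme that breaks retinoic acid down, rose from 0.295, 0.477 and 0.613 FPKM in sham to 1.42, 1.51 and 1.79 FPKM in crush libraries (0.82, adjusted p = 0.0149, limma). Its mean over all libraries was 1.017 FPKM, so it reached the level tested only through the crush group, and the call is a description. It was lost without sham 1 (adjusted p = 0.0511), crush 1 (0.0726), crush 2 (0.0709) or crush 3 (0.0645). The receptors Rxrb, at 13.4 to 14.9 FPKM, and Rarg, at 10.3 to 13.7 FPKM, were the most abundant members.

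Polycomb complexes keep Hox genes silent and Trithorax proteins keep them active. Of 28 Polycomb genes tested limma called 0, and 3 had an unadjusted p under 0.05, against 17.6% of all genes (median -0.00). The smallest adjusted p was that of Cbx7, a chromodomain subunit (-0.26, adjusted p = 0.115), and Cbx6 (42.0 to 56.2 FPKM) and Rbbp7 (39.1 to 44.3 FPKM) were the most abundant. Of 18 Trithorax and demethylase genes limma called 0, and 0 had an unadjusted p under 0.05 (median 0.04). The smallest adjusted p was that of the demethylase Kdm6b (0.21, adjusted p = 0.370), and Dpy30 (31.3 to 48.2 FPKM) and Hcfc1 (31.7 to 35.6 FPKM) were the most abundant. Of 21 names of other axial and limb patterning genes 7 had values and 5 were tested, with 0 called and 0 at an unadjusted p under 0.05. They include the zinc finger genes Tshz2, at 25.1 to 32.3 FPKM, and Tshz1 (0.13, adjusted p = 0.372), and Gdf11, a ligand that turns on posterior Hox genes, at 8.15 to 9.05 FPKM.

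Markers of other cells moved between the groups beside the fall of Hoxb8. Of 8 macrophage markers tested 7 rose and 0 fell, against 2.38% of all genes that rose, and the summed level of the 10 with values was 38.3 to 48.0 FPKM in sham and 86.2 to 96.4 FPKM in crush libraries. C1qc (complement) rose from 9.23 ± 0.999 to 20.6 ± 0.996 FPKM (SD, n = 3 each) and Mrc1 (a mannose receptor) from 3.01 to 6.38 FPKM, both with an adjusted p of 0.00509 (limma). Fibroblast markers summed to 124 to 162 FPKM in sham and 186 to 198 FPKM in crush libraries, with 0 of 7 called by limma and 5 at an unadjusted p under 0.05, where 17.6% of all genes lay. For sensory neurons limma called 0 of 12 markers, 3 having an unadjusted p under 0.05 and all 3 being lower, with Isl1, a homeodomain factor of these neurons, nearest (42.4, 41.0 and 43.4 FPKM in sham and 36.2, 34.1 and 35.3 FPKM in crush libraries, adjusted p = 0.0760). For glia it called 0 of 11, 3 having an unadjusted p under 0.05. The smallest adjusted p was that of Prx, periaxin of myelinating Schwann cells (0.32, adjusted p = 0.0958), among glial markers and that of Lum, lumican (0.40, adjusted p = 0.0961), among fibroblast markers. The most abundant markers by mean level were Apoe (1665 FPKM) and Pmp22 (409 FPKM) for glia, Dcn (84.4 FPKM) and Col1a2 (32.4 FPKM) for fibroblasts and C1qa (20.1 FPKM) for macrophages. For endothelium (Flt1 at 4.204 FPKM, Tie1 at 3.56 FPKM) and mural cells (Rgs5 at 30.2 FPKM, Pdgfrb at 6.14 FPKM) limma called 0 of 6 and 0 of 4, with 0 at an unadjusted p under 0.05. Of the spinal cord markers, Aqp4 had 1.33 FPKM and Gfap 0.357 FPKM. No marker with a value was at 0 in all libraries. The part of these cells in the Hoxb8 value was not tested.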

How the data were processed

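Neurons of lumbar dorsal root ganglia were profiled by RNA-seq in 3 sham and 3 crush libraries. Cuffdiff 1.2.1, Cufflinks 1.1.0 and TopHat 1.3.2 were used on build mm9, per the submitters' processing notes. The authors deposited FPKM per isoform and library, and a table of their own comparison with FPKM per group, log2 changes, p-values and q-values. Whether strand was kept is not given in the sources used here, and 0 columns of per-sample values were left out.

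FPKM was summed over the isoforms of a gene name. Genes averaging 1 FPKM or more were tested as log2(FPKM + 1), which understates changes of low genes, with limma 3.58.1 in R 4.3.3 on all 12289 such genes, Benjamini-Hochberg adjusted, at 0.05. Isoforms were tested likewise, and their differences within a gene with diffSplice. Plots were drawn with matplotlib 3.10.9, and tables made with numpy 2.4.6 and pandas 2.3.3 in Python 3.11.15. On simulated data (5 sets, 200 features changed by 1.5 on the log2 scale), the gene test recovered 98.5% to 100% with 2.45% to 6.13% false calls, the isoform test 76.5% to 83.5% with 4.85% to 8.38%, and diffSplice 68.5% to 76.5% with 20.8% to 27.8%. The changes were planted only in features with a mean above 1.5 on the log2(FPKM + 1) scale, and no library was made to stand apart. Differences of the tested Hox genes were smaller, from -0.92 to 0.74, so these rates do not tell how often such differences would be found.

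The members and gene lists were chosen with earlier results of these data known, and 1 of the 28 is not reported here by itself. Hox genes with a mean of at least 1 FPKM were named, with the leading isoform of each, the 5 most abundant isoforms that span 2 Hox genes, and in each other list the called genes or the one of smallest adjusted p and the 2 most abundant. Alternatives were another pseudocount (0.1), other minimum levels (0.3 FPKM or none, and 3 FPKM for the count of levels), quantile and upper-quartile scaling, array weights, reference isoforms alone, no overlapping isoforms, a replicate block, and leaving out each library.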

Additional observations from a re-analysis of the deposited data

How the results depend on the processing

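Of the 24 tested Hox genes, 17 kept the sign of their difference under every alternative run and 7 changed it under at least 1. The number of Hox genes called, 1, became 4 with array weights (Hoxb8, Hoxd1, Hoxb9 and Hoxc8), 0 without isoforms that overlap another gene name (13 Hox genes tested, Hoxb8 not among them), 0 with reference isoforms alone (16 tested), and 0 to 2 when 1 library was left out. The number of Hox isoforms called, 0, became 2 with array weights, and that of Hox genes with a level, 24, became 14 at 3 FPKM (50.0%, against 56.8% of all genes) and 13 without overlapping isoforms. Over all genes the 464 calls became 1429 with array weights, 67 with reference isoforms alone, and 53 to 1174 when 1 library was left out (1174 without sham 2). Signs turned for Hoxa9 (0.019), Hoxa10 (-0.12) and Hoxc10 (-0.027) with reference isoforms alone, for Hoxc9 (0.062) and Hoxc10 (-0.084) with array weights, and for Kdm6b (-0.054) without overlapping isoforms. With 1 library left out, the differences ran from -0.23 to 0.095 for Hoxa4, -0.00015 to 0.055 for Hoxa10, -0.17 to 0.038 for Hoxb7, -0.20 to 0.12 for Hoxc9, -0.069 to 0.10 for Hoxc10 and -0.11 to 0.0036 for Hoxd9. The cause was not tested. FPKM gives no read counts, so what depth limits is unknown.

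With the replicate number as a block, 0 Hox genes were called (Hoxb8 at an adjusted p of 0.0667) and 50 of all genes. The numbers were not taken to pair the samples, since the deviations of same-numbered libraries correlated at 0.372, -0.309 and -0.486.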

Other observations

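Of the 31 genes that rank the 6 libraries as Hoxd10 does, Penk and Chrna3 are given here, chosen after their values were seen. They are not the only genes of neurons among the 31, which also hold Cacna1b and Ank2. Penk, which encodes the opioid precursor proenkephalin, had 10.3, 4.96 and 5.72 FPKM in sham and 8.84, 13.6 and 9.40 FPKM in crush libraries. Chrna3, a nicotinic acetylcholine receptor subunit, had 5.62, 2.22 and 2.92 FPKM in sham and 4.13, 5.91 and 4.69 FPKM in crush libraries. That both were lowest in sham 2 and highest in crush 2 follows from the order by which they were picked.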
